A study of Mus musculus with 12 samples.

Results

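The binding of a chimeric MyoD protein and of its WC mutant was compared by chromatin immunoprecipitation and sequencing (ChIP-seq) in mouse P19 cells, an embryonal carcinoma line. The chimera, MD(ND2bHLH), is MyoD whose basic helix-loop-helix (bHLH) domain was exchanged for that of NeuroD2, and MD(ND2bHLH)WC, called WC here, is a mutant of that chimera. All sites of both deposited lists were taken, 14375 for the chimera and 27045 for WC, or 41420 of the 120275 sites in all 5 lists of the series. A chimera site was called kept where at least 1 base of it lay in a WC site and lost where none did, and a WC site was called gained where no base of it lay in a chimera site.

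MyoD and NeuroD2 are transcription factors that pair with E proteins through the helix-loop-helix and contact E-boxes, short DNA elements of the form CANNTG, through the basic region. MyoD directs skeletal muscle differentiation and NeuroD2 directs neuronal differentiation. Outside its bHLH domain, MyoD also makes contact with homeodomain cofactors of the Pbx and Meis families, which helps it to bind at some muscle genes. The labels do not say what the letters W and C stand for, and the change in the protein was not checked here. The title of the series names the question, the part that the choice of binding sites plays in the lineage such a factor directs.

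P19 cells carried the chimera in one group and WC in the other, introduced by infection with polybrene at 8 µg/ml. Fresh medium followed after 24 h and a neuronal medium after 48 h. The sources used here give no time of harvest. Each group has 2 libraries, 1 made with MyoD antibody 6196 and 1 with MyoD antibody 6975, and the labels name 1 common list for both. The lists of cells transduced with MyoD (24935 sites, the same antibodies), with NeuroD2 (31458 sites, NeuroD2 antibodies 1165 and 1240) and with a further mutant, MD(ND2bHLH)WCS or WCS (22462 sites, the same MyoD antibodies), served as readouts that the overlap rule had not used. MyoD and NeuroD2 are called the parents. The untransduced controls have no list among the data analysed, and the shares are given without a background.

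With 1 list per group there is no spread between replicates and no test across samples. The 95% intervals given are exact Clopper-Pearson intervals for shares and Newcombe intervals for differences of shares. They treat sites as independent and cover counting error only. Read depth is unknown. The chimera list, like the MyoD list, holds 0 sites on chromosome X, and its shortest site has 200 bp. The WC, WCS and NeuroD2 lists hold 403, 362 and 570 sites on X and shortest sites of 54, 54 and 53 bp. The mutation therefore cannot be told apart from whatever else separates these sets of lists.

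In the full lists WC kept most chimera sites and added more sites than it kept. Of the 14375 chimera sites, 8773 or 61.0% (60.2 to 61.8%) were kept and 5602 or 39.0% (38.2 to 39.8%) were lost. Of the 27045 WC sites, 18186 or 67.2% (66.7 to 67.8%) were gained and 8859 lay on a chimera site. In length of DNA, 4.64 Mb of chimera sites were kept, 2.71 Mb were lost and 6.42 Mb of WC sites were gained. Where the WC list was shortened by value to 14375 sites, the share kept was 46.1% and the share gained 54.0%. The 770 gained sites on X or under 200 bp, where the chimera list has none, made up 4.23% of the gained sites.

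Kept sites mostly coincided closely. The 8773 kept chimera sites formed 8907 overlapping pairs with WC sites, of which 8555 were one to one. The median overlap was 358 bases and the median distance between centres 45 bases. In 78.2% of pairs the centres lay within 100 bases. Just inside the rule, 5 pairs overlapped by fewer than 10 bases, the smallest by 1 base. Just outside it, 40 lost sites lay within 100 bases of a WC site, the nearest at 8 bases.

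Taken over all values, what set kept apart from lost sites was overlap with NeuroD2, while overlap with MyoD was nearly equal. Within bins of chimera value, sites with MyoD were mostly kept in smaller shares at like NeuroD2 overlap, as given below. Of the kept sites 76.2% (75.3 to 77.1%) overlapped a NeuroD2 site, against 11.5% (10.7 to 12.4%) of the lost sites, a difference of −64.7 points for lost minus kept (−65.9 to −63.4). The NeuroD2 shares of kept and lost sites were 84.5% and 22.4% with the WC list alone shortened to 14375 sites, and 66.5% and 6.27% with all lists shortened. A MyoD site was overlapped by 56.9% (55.9 to 58.0%) of kept and 57.9% (56.5 to 59.2%) of lost sites, a difference of 0.941 points whose interval spans no difference (−0.718 to 2.60). The sign of that small difference turned with the setting: with centres within 100 bases MyoD was overlapped by 49.2% of kept and 44.6% of lost sites, and with the upper 50% of every list by 52.8% and 57.8%. Lost sites were thus mostly sites of MyoD without NeuroD2, 2873 or 51.3%, or of neither parent, 2083 or 37.2%. Sites on both parents, 368, and on NeuroD2 alone, 278, made up 6.57% and 4.96% of the lost sites. Over the whole chimera list these classes held 28.1% (MyoD alone), 20.9% (neither), 29.1% (both) and 21.9% (NeuroD2 alone). The order of the leading classes among lost sites depended on the setting. Sites on neither parent came first, at 49.3% against 39.1% for MyoD alone, where centres had to lie within 100 bases, and at 51.7% against 42.0% with all lists shortened to 14375 sites.

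**Figure D1:**
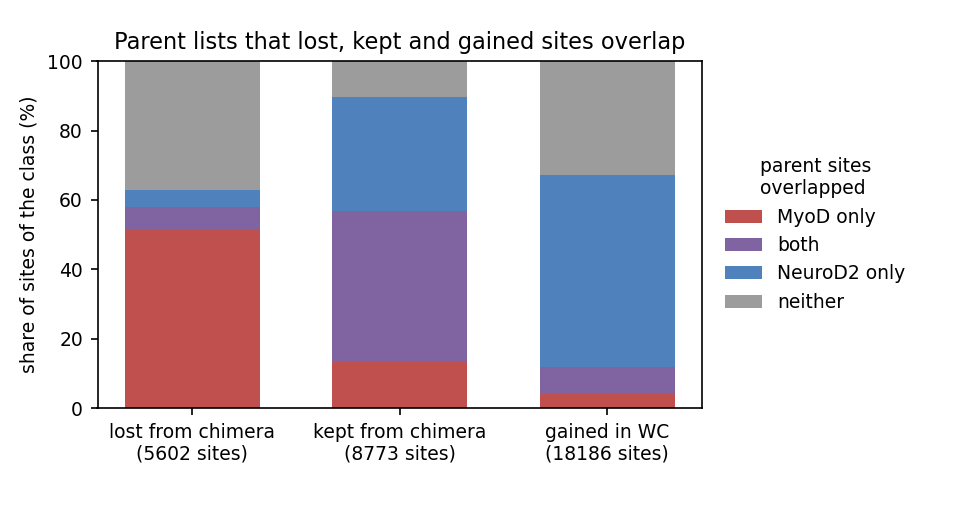
Stacked bars give the share of lost, kept and gained sites (y axis, %) that overlap a site of MyoD only, of both parents, of NeuroD2 only or of neither. MyoD only leads among lost sites (51.3%), both parents among kept sites (43.6%) and NeuroD2 only among gained sites (55.3%).

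Read by class, the share of chimera sites kept took a high and a low level that went with overlap with NeuroD2. WC kept 91.2% (90.3 to 92.1%) of the 4189 chimera sites on both parents and 91.2% (90.1 to 92.1%) of the 3143 on NeuroD2 alone. Taken over all values, the difference between these classes was 0.0601 points (−1.24 to 1.39). Of the 4045 chimera sites on MyoD alone it kept 29.0% (27.6 to 30.4%), and of the 2998 on neither parent 30.5% (28.9 to 32.2%), a difference of −1.55 points (−3.71 to 0.608). With a NeuroD2 overlap 91.2% were kept and without one 29.6%, a difference of 61.6 points (60.3 to 62.8). Shortening the WC list alone to 14375 sites, an alternative added once the data had been seen, gave shares kept of 75.2% (both), 77.6% (NeuroD2 alone), 13.4% (MyoD alone) and 16.2% (neither). The level thus moved with the length of the WC list, and the gap between sites with and without NeuroD2 was present at both lengths.

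For gained sites the order was the opposite, and overlap with MyoD differed more than overlap with NeuroD2. Of the gained sites 11.8% (11.4 to 12.3%) overlapped a MyoD site, against 56.6% (55.6 to 57.6%) of the kept sites of the WC list, a difference of −44.8 points (−45.9 to −43.6). For NeuroD2 the shares were 63.1% and 76.1%, a difference of −12.9 points (−14.1 to −11.8). By class, 10064 gained sites (55.3%) lay on NeuroD2 alone, 5970 (32.8%) on neither parent, 1420 (7.81%) on both and 732 (4.03%) on MyoD alone. In the whole WC list these classes held 48.0%, 25.5%, 19.4% and 7.08%. Of the WC sites on neither parent 86.4% were gained and of those on NeuroD2 alone 77.6%, against 38.2% on MyoD alone and 27.0% on both. WC sites with a MyoD overlap were gained in 30.03% and those without one in 80.7%, a difference of −50.6 points (−51.8 to −49.4). With all lists shortened to 14375 sites the shares gained were 71.8% (neither), 63.1% (NeuroD2 alone), 18.0% (MyoD alone) and 12.7% (both). MyoD and the chimera are also the lists without X and without the shortest sites, and this cannot be told apart from the protein.

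Each site carries the authors' own value, taken as higher for stronger calls, which serves here to rank the sites of 1 list. Kept sites had the higher values in both lists. In the chimera list the median was 11.2 for kept and 8.03 for lost sites, with quartiles of 7.41 and 20.5 for kept and 6.37 and 11.3 for lost sites. In the WC list it was 19.1 for kept and 8.97 for gained sites, with quartiles of 10.03 and 38.4 for kept and 6.56 and 14.4 for gained sites. In the WC list gained sites on both parents and on NeuroD2 alone had medians of 10.8 and 10.5, and gained sites on neither parent and on MyoD alone 7.24 and 6.93. Lost sites on MyoD alone had a median of 8.51 in the chimera list and those on neither parent 7.20, while kept sites on both parents had 15.4.

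In each of 10 bins of strength, chimera sites on NeuroD2 were kept in larger shares than those without it. Each list was divided into 10 bins of nearly equal size by value. Bin 1 holds the lowest values and bin 10 the highest. The share of chimera sites kept was 43.7% in bin 1 and 87.1% in bin 10, and 28.7% and 78.9% with the shortened WC list. For chimera sites on NeuroD2 alone it was 86.4% in bin 1 and 100% in bin 10, where all 124 were kept, and for sites on both parents 84.7% and 97.7%. For sites on MyoD alone it was 13.6% in bin 1 and 58.5% in bin 10, and for sites on neither parent 23.8% and 66.7%. Sites with NeuroD2 in bin 1 were thus kept in a larger share than sites on MyoD alone in bin 10. Sites on both parents were kept in a smaller share than sites on NeuroD2 alone in every bin. The gap was widest in bin 4, at 79.2% on both and 92.8% on NeuroD2 alone. Sites on MyoD alone were kept in a smaller share than sites on neither in every bin but bin 9, where the shares were 42.9% and 42.2%. In most bins the counting intervals of the classes so compared overlapped.

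**Figure D2:**
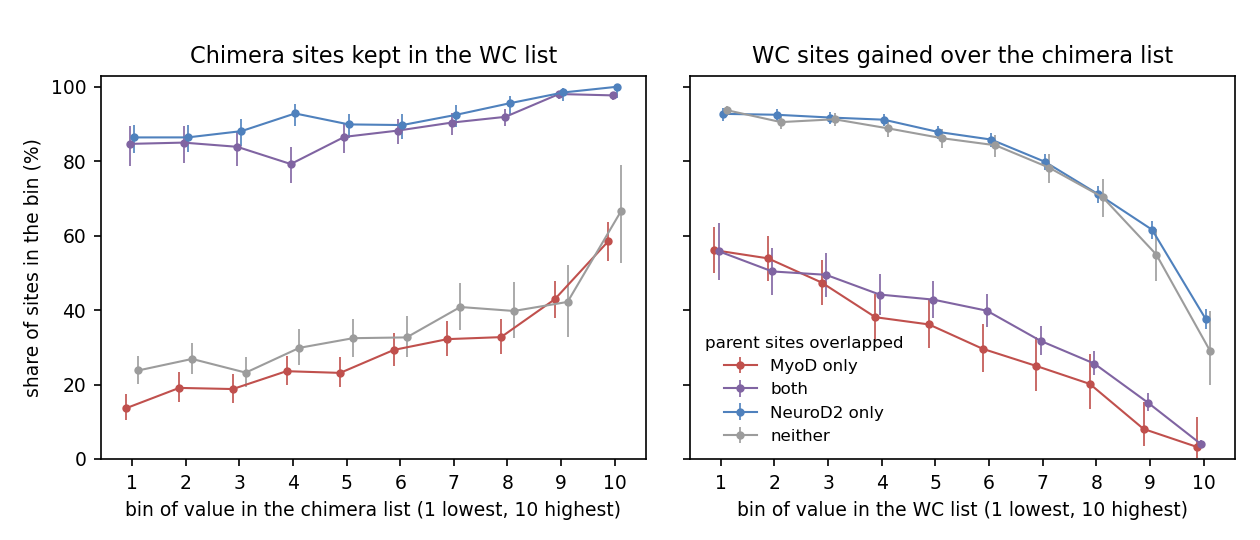
Points give the share of chimera sites kept (left) and of WC sites gained (right) in 10 bins of the authors' value within the list (x axis), for the 4 classes of parent overlap, with exact 95% intervals that cover counting error only. On the left the lowest point of the NeuroD2 classes is 79.2% and the highest point of the other classes 66.7%; on the right the classes without MyoD lie above those with it in every bin.

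Gained sites made up more of the weak end of the WC list than of its strong end, and some were among its strongest sites. The share of WC sites that were gained was 87.3% in bin 1 and 21.6% in bin 10, which left 583 gained sites among the 2705 of highest value. With centres within 100 bases the share gained in bin 10 was 36.9%. With overlap by 1 base it was 37.6% in bin 10 for sites on NeuroD2 alone and 29.1% for sites on neither parent, against 3.91% for sites on both and 3.23% for sites on MyoD alone. In bin 1 the same classes had 92.7%, 93.7%, 55.8% and 56.1%.

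The value of the parent at the same site was a second readout. For chimera sites on both parents the median NeuroD2 value was 18.9 where the site was kept and 7.29 where it was lost, while the median MyoD value was 20.6 and 17.3. For sites on NeuroD2 alone the median NeuroD2 value was 21.1 for kept and 7.85 for lost sites. For sites on MyoD alone the median MyoD value was 19.9 for kept and 16.2 for lost sites. Sites on both parents were divided into 5 bins by either parent. By NeuroD2 value the share kept was 74.5% in the lowest and 99.5% in the highest bin, and by MyoD value 90.7% and 94.2%. On NeuroD2 alone the share kept was 74.1% in the lowest and 98.4% in the highest bin of NeuroD2 value. On MyoD alone it was 25.8% and 35.4% in the lowest and the highest bin of MyoD value. Among chimera sites the share kept therefore varied more with the NeuroD2 value than with the MyoD value.

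**Figure D3:**
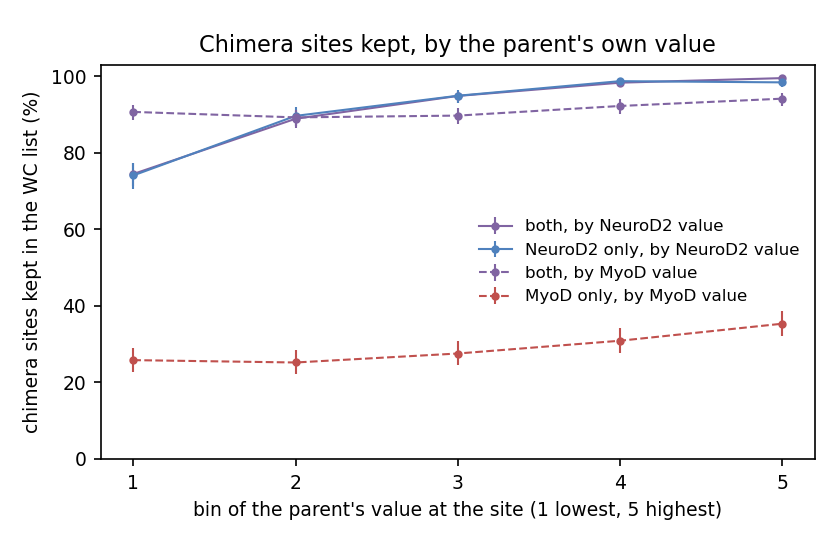
Points give the share of chimera sites kept in the WC list (y axis, %) in 5 bins of the parent's own value at the site (x axis, 1 lowest), with exact 95% intervals for counting error. By NeuroD2 value (solid lines) the share runs from 74.1 and 74.5% in the lowest bin to 98.4 and 99.5% in the highest; by MyoD value (dashed lines) it runs from 90.7 to 94.2% on both parents and from 25.8 to 35.4% on MyoD alone.

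Among WC sites on both parents or on NeuroD2 alone, the share gained fell as the parent's value rose, so the share kept rose. Of the WC sites on both parents, 47.1% were gained in the lowest of 5 bins of MyoD value and 6.09% in the highest. By NeuroD2 value the shares were 38.6% and 13.9%. Among these WC sites the share thus varied more with the MyoD value, the reverse of the order among chimera sites. Among WC sites on NeuroD2 alone, 85.7% were gained in the lowest bin of NeuroD2 value and 63.4% in the highest. The median NeuroD2 value was 13.8 at gained and 20.8 at kept sites of that class.

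Among the sites that both proteins held, the order by strength differed between the lists. The 8555 one to one pairs were ranked by chimera value and by WC value, so that both ranks run over the same pairs. Pairs on MyoD alone had a median percentile of 54.8 by chimera value and 22.6 by WC value, and 220 of the 1158 ranked higher in WC. Pairs on NeuroD2 alone had 37.8 and 59.5, and 2032 of the 2802 ranked higher in WC. Pairs on both parents had 64.5 and 57.6, and pairs on neither 32.0 and 27.1. In the 855 pairs of highest chimera value 148 were on MyoD alone and 66 on NeuroD2 alone, and in the 855 of highest WC value 12 and 317. Both sets shared 324 pairs. Spearman's rho between both values was 0.35 over these pairs, a description across sites of 2 lists that are not independent replicates.

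**Figure D4:**
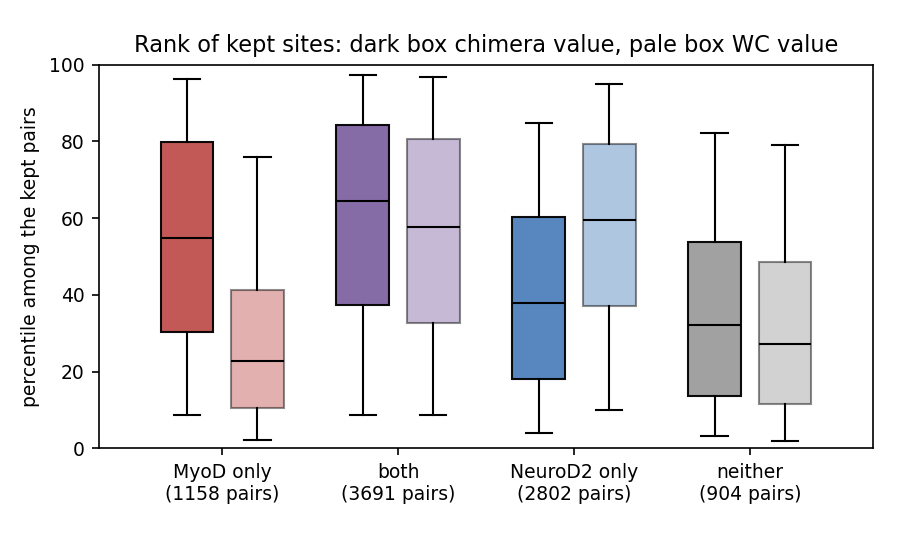
Boxes give the percentile (y axis) of kept pairs among all 8555 one to one pairs, by chimera value (dark, left box of each class) and by WC value (pale, right box); lines are medians, boxes the quartiles and whiskers the 5th to 95th percentile. The median is 54.8 and 22.6 for pairs on MyoD alone and 37.8 and 59.5 for pairs on NeuroD2 alone.

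The WCS list, made from other libraries with the same antibodies, held few lost and many gained sites. Of the lost sites 8.96% (8.23 to 9.74%) were in the WCS list, of the kept chimera sites 80.3% (79.4 to 81.1%) and of the gained sites 62.2% (61.5 to 63.0%). All chimera sites were in it at 52.5% and all WC sites at 68.1%. The labels do not say how WCS differs from WC, and the WCS list belongs with that of WC in holding X and short sites. With the WC list alone shortened to 14375 sites, 21.9% of lost and 82.4% of gained sites were in the WCS list.

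The parent class also separated the sites that WCS shared, among gained and kept sites alike. Of gained sites on both parents 80.9% (78.8 to 82.9%) were in the WCS list, and of those on NeuroD2 alone 76.2% (75.4 to 77.1%). Of gained sites on MyoD alone 44.1% (40.5 to 47.8%) were there, and of those on neither parent 36.4% (35.2 to 37.7%). Among lost sites the shares were 31.0% on both parents, 25.5% on NeuroD2 alone, 7.17% on MyoD alone and 5.33% on neither. For kept chimera sites they were 91.9% on both parents, 91.7% on NeuroD2 alone, 43.8% on MyoD alone and 42.4% on neither. The 6866 gained sites outside the WCS list had a median WC value of 6.90, against 11.1 for the 11320 inside it.

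**Figure D5:**
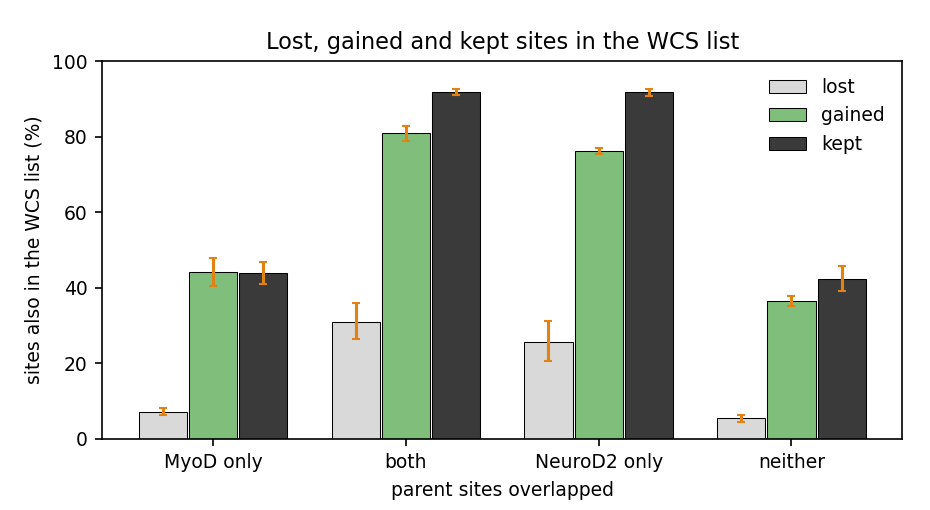
Bars give the share of lost, gained and kept sites that are also in the WCS list (y axis, %) for each class of parent overlap, with exact 95% intervals for counting error. Lost sites reach at most 31.0% in any class, while gained sites on both parents and on NeuroD2 alone stand at 80.9 and 76.2%.

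Few lost sites had a gained site close by. The median distance from a lost site to the nearest WC site was 17.4 kb, edge to edge, and 482 or 8.60% had one within 1000 bases. Here 218 lost sites, 3.89%, had a gained site within 1000 bases, against 676 or 7.71% of the kept sites. Of lost sites on NeuroD2 alone 16.5% had a WC site within 1000 bases, and of those on both parents 14.1%, against 7.83% on MyoD alone and 7.63% on neither. From gained sites the median distance to the nearest chimera site was 32.2 kb, leaving out the 403 on X, and it was 62.8 kb with the upper 50% of every list and 25.9 kb with centres within 100 bases. The distance from lost sites depended on the setting, and was 8.73 kb where kept sites needed centres within 100 bases and 31.1 kb with the shortened WC list.

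The leading sites of each class are given by their position in mm9, counted from 1, with the authors' values. The kept site of highest chimera value lay at chr8:125374456-125375092, at 311.3 in the chimera list, 24.9 in WC, 13.9 in WCS, 16.4 in NeuroD2 and infinite in MyoD. The next, at chr17:71087299-71088531, had 269.3 in the chimera list, 38.4 in WC, 28.5 in WCS, 218.9 in MyoD and 10.7 in NeuroD2. The third, at chr6:115073201-115073775, had 255.6 in the chimera list and 51.5 in WC, was infinite in MyoD, and was in neither the NeuroD2 nor the WCS list.

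The lost sites of highest value lay on MyoD alone and were absent from the WCS list as well. The first, at chr7:19876615-19877022, had 175.4 in the chimera list and 223.6 in MyoD, and the nearest WC site was 64188 bases away. Those at chr11:94335497-94336135 and at chr17:8199463-8200011 had 122.5 and 121.8 in the chimera list and 63.5 and 211.9 in MyoD. Their nearest WC sites lay 2882 and 13092 bases away.

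The lost sites of highest value on both parents lay at chr10:39378834-39379649, chr6:121001420-121001857 and chr5:34529993-34530988. Their chimera values were 93.7, 92.9 and 86.7, their MyoD values 59.6, 84.3 and 22.7 and their NeuroD2 values 10.6, 11.1 and 5.91. None of the 3 was in the WCS list. The leading lost sites on NeuroD2 alone were weaker. They lay at chr6:99753972-99755525, chr11:55241638-55242014 and chr4:124301309-124301849, with chimera values of 24.9, 22.9 and 19.9 and NeuroD2 values of 5.23, 5.89 and 10.5. WCS held those on chromosomes 11 and 4, at 6.39 and 9.43. The leading lost sites on neither parent lay at chr7:31834841-31835292, chr13:58087963-58088408 and chr10:61391458-61392292, at 91.6, 81.9 and 73.3, and none was in the WCS list.

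The gained sites of highest value were also in the WCS list. Those on NeuroD2 alone lay at chr2:181747330-181748052 and at chr9:3006602-3007048, both infinite in WC and in WCS, with NeuroD2 values of 89.8 and 51.2. The next lay at chr13:3372003-3372969, with 237.8 in WC, 231.7 in WCS and 226.8 in NeuroD2. Gained sites on neither parent were led by chr9:3003308-3003690, 133 bases from a chimera site, and chrX:166649918-166650296, both infinite in WC and WCS. The third, at chr4:134150634-134151009, had 180.1 in WC and 163.1 in WCS. How uniquely reads map at these places was not tested.

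The leading gained sites with a MyoD overlap had lower WC values than those above. Those on both parents were led by chr7:69606883-69607419, with 92.3 in WC, 99.6 in WCS, 26.9 in MyoD and 37.0 in NeuroD2. The next were chr7:103568515-103569020, with 82.7 in WC and 88.2 in NeuroD2, and chr8:19971822-19974412, with 73.9 in WC and 37.4 in NeuroD2. On MyoD alone the leading sites were chr12:88301621-88302032, chr2:165544735-165545228 and chr8:35504829-35505242. Their WC values were 43.3, 41.2 and 38.9 and their MyoD values 10.7, 7.94 and 12.6. WCS held the first and the second of these, at 5.70 and 6.05, and the first lay 200 bases from a chimera site.

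The share kept varied little between chromosomes. It was highest on chromosome 17, with 437 of 677 chimera sites or 64.5% (60.8 to 68.2%), and lowest on chromosome 3, with 341 of 620 or 55.0% (51.0 to 59.0%). The intervals do not overlap, but these chromosomes were picked as the extremes of 19. The share of WC sites gained ran from 62.5% on chromosome 11 to 74.6% on chromosome 14 among the autosomes.

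The highest count in a window of 100 kb was lower for lost than for gained sites. The classes hold 5602 and 18186 sites, and the counts are not scaled to this. In windows of 100 kb, lost sites never numbered more than 7. That window, from 14800001 on chromosome 5, held 7 lost sites, 0 WC sites, 1 WCS, 1 MyoD and 10 NeuroD2 sites. Windows from 75400001 on chromosome 1 and from 20500001 on chromosome 11 had 6 lost sites each, with 2 and 4 gained sites, and 1 further window also had 6. Gained sites reached 56 from 19700001 on chromosome 8, 52 from 14900001 on chromosome 5 and 47 from 15100001 on chromosome 5. These windows held 69, 67 and 59 NeuroD2 sites, 64, 60 and 58 WCS sites, and 5, 5 and 0 MyoD sites. The window from 14900001 on chromosome 5 adjoins the one with 7 lost sites. Kept sites were most numerous from 77200001 on chromosome 10, with 14 kept, 1 lost and 2 gained, and from 122700001 and 122800001 on chromosome 8, with 13 and 11 kept.

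Over all 12528 windows with a chimera or WC site, 4282 held a lost, 5476 a kept and 9665 a gained site. A gained site stood in 61.7% of the windows with a lost site and in 68.4% of those with a kept site. Over all these windows the share was 77.1%, which includes windows counted only for their gained sites. Of the 239 windows with 3 or more lost sites, 57 had no gained site, and 101 windows had 5 or more gained sites and no chimera site. The 31 windows with 10 or more gained sites held 563 of the 18186. Without the 287 windows in which any list had 10 or more sites, the share kept was 59.8% and the share gained 67.9%.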

How the data were processed

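The genome build was mm9, and the tools named are CASAVA 1.8.2 and BWA 0.7.5, per the submitters' processing notes. The sources used here name no peak caller, background, filter or pooling of libraries. A deposited site has a position and a score with no named unit. All scores lie above 5 and some are infinite, so the authors' score may be a −log10 p-value, and it ranks sites within their own list only. Overlaps, shares, bins and distances were computed with Python 3.11.15, numpy 2.4.6, pandas 2.3.3 and scipy 1.17.1, and the plots with matplotlib 3.10.9. The overlap code was tested on a simulated list that held slightly shifted copies of part of the chimera sites. Of 14375 chimera sites, 13 differed from their known membership. A shifted copy may overlap a neighbour that was not copied, so this is no error rate for the real lists. Sites named are the 3 of highest value in each class (ties by width) and, in each class, the 3 windows of 100 kb with most sites. Members, lists and alternatives were chosen with earlier results of these data known. Gene names, E-boxes and other sequence features need a genome or annotation of mm9 and were not used here. No p-value was computed.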

Additional observations from a re-analysis of the deposited data

How the results depend on the processing

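Alternatives changed the size of most shares more than their order. No paired analysis was possible because each group has 1 list and no value per library, so no library could be left out either. For 12 main values, those outside the counting interval of the reported one follow, by setting. Of 152 other recomputed values, 70 also left theirs, and only some of these are given beside their result. With centres at most 100 bases apart, 48.4% of chimera sites were kept and 74.3% of WC sites gained. Lost sites were then 39.1% on MyoD alone and 49.3% on neither parent, and gained sites 51.8% on NeuroD2 alone. WCS held 9.94% of lost, 73.7% of kept and 61.5% of gained sites, the highest bin kept 65.4%, median values were 8.51 (lost) and 9.32 (gained), and lost sites lay 8.73 kb from WC. Using only the upper 50% of every list by value, the shares were 57.7% kept, 69.2% gained, 53.2% and 38.5% of lost sites on MyoD alone and on neither, and 56.9% of gained sites on NeuroD2 alone. WCS held 6.54% of lost, 78.9% of kept and 65.6% of gained sites, the highest bin kept 81.6%, medians were 13.9 and 17.6, and the distance was 32.5 kb. With all lists shortened to 14375 sites, the shares were 46.1% kept, 54.0% gained, 42.0% and 51.7% of lost sites on MyoD alone and on neither, and 53.4% of gained sites on NeuroD2 alone. WCS held 9.79% of lost and 70.9% of gained sites, the highest bin kept 78.9%, medians were 8.17 and 15.9, and the distance was 31.1 kb. With the WC list alone shortened, the shares kept and gained, the highest bin, both medians and the distance were the same as these by construction. Lost sites were then 45.2% on MyoD alone and 32.4% on neither, gained sites 69.6% on NeuroD2 alone, and WCS held 21.9%, 88.2% and 82.4%. Without dense windows, 59.8% were kept and 67.9% gained, WCS held 79.2% of kept and 61.3% of gained sites, and the distance was 19.2 kb. Joining sites within 500 bases changed the distance to 18.4 kb. An overlap of 50% of the shorter site, and the limit to 19 autosomes and a common range of widths, left all 12 values inside their intervals. In every alternative chimera sites on both parents and on NeuroD2 alone were kept in at least 75.2% and those on MyoD alone and on neither in at most 31.7%. Without the depth of the libraries, a site missing from a list is not shown to be unbound.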
